A study of Homo sapiens with 4 samples.

Results

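The tissue kallikreins KLK5, KLK6, KLK7, KLK10 and KLK11 and the protease inhibitor family members SERPINB1, SERPINB3, SERPINB5 and SERPINB13 were followed in MCF10A, an immortalised but non-tumorigenic line of human breast epithelium. The genes were found by symbol in the annotation of the Affymetrix U133 Plus 2.0 array, and every probe set that named only the gene was kept. This gave 21 probe sets of 9 genes, of 54675 probe sets in all and 19775 genes named by a probe set of their own. Total RNA came from cells with short hairpin RNAs (shRNA) directed at Cbl and Cbl-b (2 arrays, labelled double knockdown) and from cells labelled only as control (2 arrays), with no word on what they carried, both grown in DFCI-1 medium and harvested during normal growth. Cbl and Cbl-b are E3 ligases that attach ubiquitin to receptor tyrosine kinases once these are active and so steer them to breakdown. The labels do not say whether either line was a clone or a pool, and name no separate cultures within a group. Every p-value here therefore measures the spread between arrays alone, which may be technical.

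Tissue kallikreins are secreted serine proteases encoded side by side in a single gene cluster. In stratified epithelia they act as a cascade: KLK5 activates other kallikreins, and KLK5 and KLK7 cut the proteins that hold surface cells together. SERPINB proteins are mostly intracellular serpins, which trap a protease by offering a reactive loop as bait. Several of them stop lysosomal cysteine proteases or granule serine proteases, and SERPINB5, known as maspin, is a serpin-like protein without inhibitory activity that was described in normal mammary epithelium.

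The sequences just upstream of the members called in the comparison are shown side by side. All 9 genes had an entry in the RefSeq table of GRCh38.p14, and the 250 bases before the start of the first listed entry are given, 5′ to 3′ on the strand of the gene. KLK10 lies on the minus strand of chromosome 19 (window chr19:51019862-51020111), as does KLK7 (chr19:50983918-50984167), and SERPINB5 on the plus strand of chromosome 18 (chr18:63476708-63476957). Capitals mark matches, on either strand, to TATAA (the core of a TATA box), GGGCGG (a GC box bound by Sp1), TGANTCA (bound by AP-1), CCGGAA (a core bound by ETS factors) or TGATGNAA (bound by ATF4 with C/EBP proteins, CHOP among them). TATAA can overlap its own reverse complement, and copies of GGGCGG can overlap each other.
KLK10: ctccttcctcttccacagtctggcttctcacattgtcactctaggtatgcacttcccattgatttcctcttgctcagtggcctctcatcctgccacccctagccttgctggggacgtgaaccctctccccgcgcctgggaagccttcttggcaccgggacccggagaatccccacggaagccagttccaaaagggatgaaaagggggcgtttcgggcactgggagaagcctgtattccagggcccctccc
KLK7: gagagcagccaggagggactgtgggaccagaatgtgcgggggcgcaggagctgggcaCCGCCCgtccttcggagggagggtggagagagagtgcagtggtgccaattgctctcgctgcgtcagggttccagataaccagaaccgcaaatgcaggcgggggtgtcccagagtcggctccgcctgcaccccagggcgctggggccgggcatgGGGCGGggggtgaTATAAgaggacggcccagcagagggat
SERPINB5: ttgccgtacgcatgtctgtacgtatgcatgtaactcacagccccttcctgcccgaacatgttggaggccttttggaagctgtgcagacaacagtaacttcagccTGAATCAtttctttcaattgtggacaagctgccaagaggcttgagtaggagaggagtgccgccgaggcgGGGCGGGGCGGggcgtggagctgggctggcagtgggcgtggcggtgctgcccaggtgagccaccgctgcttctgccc
The window of KLK10 held none of these letters. That of KLK7 held TATAA 27 bases before the start and 2 copies of GGGCGG, and that of SERPINB5 held 1 TGANTCA and 2 overlapping copies of GGGCGG but no TATAA. The table gives KLK10 and KLK7 further start entries, and the matches change with them: the other KLK10 window held CCGGAA, and of the other KLK7 windows one held no TATAA and one held it farther from the start. Of 35116 windows of this length in the table, 18.9% held TATAA, 42.6% GGGCGG, 6.57% TGANTCA, 14.5% CCGGAA and 3.14% TGATGNAA. Members that were not called held such letters as well. The first listed windows of KLK5 and SERPINB1 held TATAA, those of KLK6 and SERPINB1 GGGCGG and that of SERPINB13 TGANTCA. Those of KLK11 and SERPINB3 held no match. A match is a description of these letters and no evidence that a factor binds.

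SERPINB3 and SERPINB4 are neighbouring copies of one gene, which limits what their probe sets can tell apart. Their windows (chr18:63661894-63662143 and chr18:63644257-63644506, both on the minus strand) are shown together, with capitals at the bases that differ. The windows lie before the start of the transcripts, so they do not show what the probe sets can tell apart.
SERPINB3: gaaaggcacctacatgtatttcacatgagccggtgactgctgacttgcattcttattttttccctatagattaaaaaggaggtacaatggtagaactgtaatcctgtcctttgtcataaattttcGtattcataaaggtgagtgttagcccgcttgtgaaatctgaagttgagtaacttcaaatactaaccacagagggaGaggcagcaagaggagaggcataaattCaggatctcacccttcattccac
SERPINB4: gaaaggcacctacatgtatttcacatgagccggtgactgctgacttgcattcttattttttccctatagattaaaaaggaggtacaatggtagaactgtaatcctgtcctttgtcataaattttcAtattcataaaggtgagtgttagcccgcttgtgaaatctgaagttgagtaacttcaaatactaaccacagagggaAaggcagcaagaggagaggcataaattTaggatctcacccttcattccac
The windows differed at 3 of 250 bases. One probe set of the array named both genes together and was kept out of the members.

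The 4 arrays were close in overall brightness, with medians of 14.5 to 14.7 over all probe sets, and arrays of a group correlated across probe sets at r = 0.997 (labelled double knockdown) and r = 0.995 (control), against 0.983 to 0.987 between groups, where probe sets are not independent replicates. The brightest CBL probe set read 31.1 and 29.0 on the arrays labelled double knockdown and 125.9 and 84.4 on the control arrays (log2 change -1.37 ± 0.16 SE, limma adjusted p = 0.00283). The other tested CBL probe sets had log2 changes of -0.33 and -0.20 and were not called (adjusted p = 0.0982 and 0.225 by limma). The mean of all CBL probe sets, those too dim to be tested included, had -0.41 (adjusted p = 0.0159 by limma). CBLB was higher on its brightest probe set, at 94.8 and 99.5 against 64.3 and 70.05 in the control (log2 change 0.45 ± 0.09 SE, limma adjusted p = 0.0198). A dimmer CBLB probe set had 0.40 and was not called (adjusted p = 0.0937 by limma). The CBLB transcript thus went against its label, so the arrays are called labelled double knockdown throughout. The call of CBL was lost without either array labelled double knockdown (adjusted p up to 0.0895) and that of CBLB without either of them or control replicate 1 (up to 0.202). Log2 changes are of intensity + 16, positive where the arrays labelled double knockdown were higher, and understate changes of dim probe sets. Probe sets whose mean over the 4 arrays reached the median of all, an intensity of 14.6, were tested. These were 27307 probe sets, and one was called where its adjusted p was under 0.05.

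KLK10 and SERPINB5 were lower on the arrays labelled double knockdown, as was KLK7 on the dimmer of its probe sets, and no member was called higher. At the brightest probe set of each gene, 2 of 8 tested genes were called lower, where 5.74% of all genes were, and KLK7 was not called. KLK10 was 40.0% lower, KLK7 36.5% lower on one of its probe sets and SERPINB5 26.0% lower. In RNA from whole cultures, fewer cells of a type and less RNA per cell cannot be told apart. SERPINB3 was 33.3% brighter on its main probe set but did not pass the test, and KLK5, KLK6, SERPINB1 and SERPINB13 did not pass either, at any of their probe sets. Of the 21 probe sets, 15 were bright enough to be tested. Of these, 3 were called lower and 0 higher, where 5.19% of all tested probe sets were called lower, 7.88% higher and 13.1% in either direction. In the kallikreins 2 of 5 tested probe sets were called and in the SERPINB genes 1 of 10. The median log2 change over the 15 probe sets was -0.08, with a range of -0.67 to 0.38, beside 0.00 over all tested probe sets. An unadjusted p under 0.05 was reached by 6 of the 15, where 28.6% of all tested probe sets reached it. The calls of members needed both arrays labelled double knockdown. With either left out, the error comes from the control pair alone, and calls became far fewer over all tested probe sets as well.

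**Figure D1:**
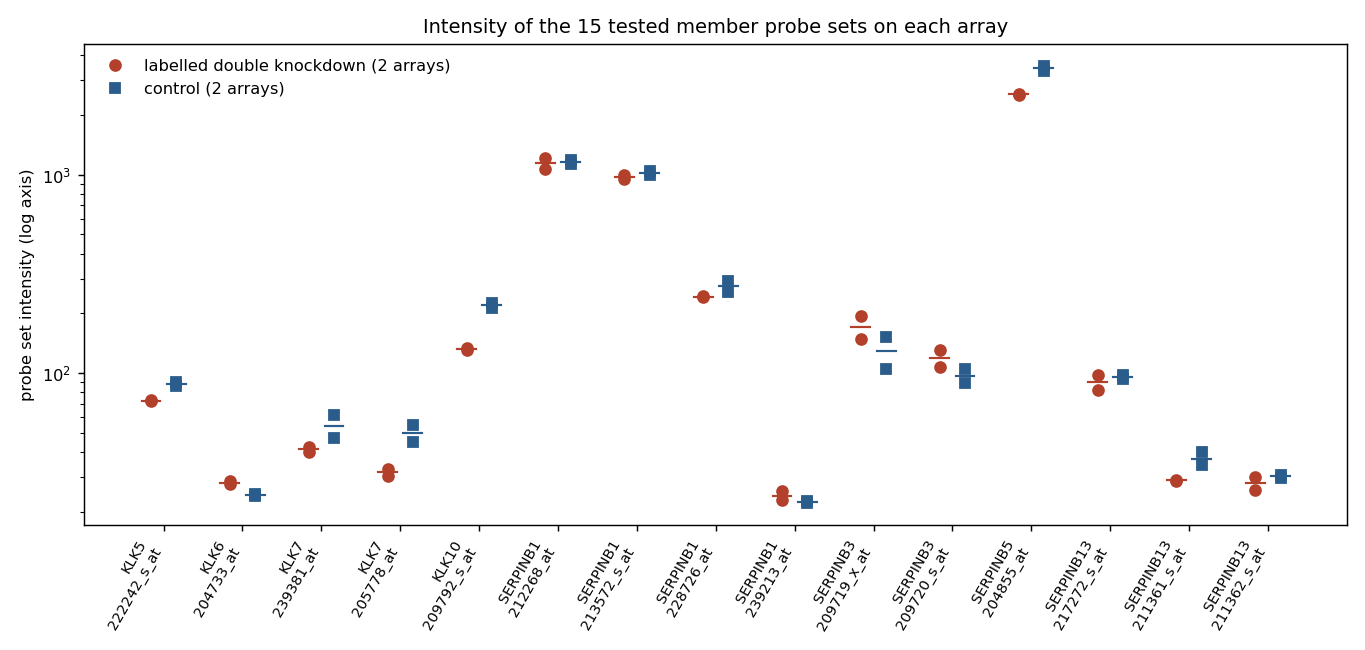
Intensity (log axis) of the 15 tested probe sets of the kallikreins and SERPINB genes on each array, with the 2 arrays labelled double knockdown as circles at left, the 2 control arrays as squares at right and short lines for the means. KLK10 and SERPINB5 show tight pairs that lie apart, at 132 against 220 and at 2539 against 3434, while the arrays of SERPINB3 spread widely within each group.

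KLK5, the trypsin-like kallikrein that starts the epidermal cascade, read 73.2 and 72.4 on the arrays labelled double knockdown and 90.2 and 86.1 on the control arrays. Both arrays labelled double knockdown lay below both control arrays, as they did for 28.2% of all tested probe sets, while they lay above both in 28.4%. The log2 change of -0.23 ± 0.08 SE (95% interval -0.43 to -0.03) was not called (adjusted p = 0.117 by limma). With 1 value per gene, the mean of its probe sets, it was called at the same log2 change (adjusted p = 0.0499 by limma).

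KLK7, the chymotrypsin-like kallikrein that KLK5 activates in skin, was read by a pair of probe sets. On the dimmer one it had 33.1 and 30.3 on the arrays labelled double knockdown and 45.0 and 54.9 on the control arrays. The groups did not overlap, and the control arrays were further apart than those labelled double knockdown. The log2 change was -0.46 ± 0.10 SE (adjusted p = 0.0282 by limma). On the brighter one it read 40.1 and 42.5 against 47.3 and 61.3 in the control. That probe set also had no overlap but did not pass (log2 change -0.29 ± 0.11 SE, 95% interval -0.55 to -0.02, adjusted p = 0.143 by limma). Its log2 change was -0.14 without control replicate 2 and -0.43 without control replicate 1. KLK7 thus ran lower on both, and its call rested on the dimmer one. The call was lost without control replicate 2 (adjusted p = 0.0826 by limma), which carried the highest reading on both, and without either array labelled double knockdown (up to 0.245). With the mean of both probe sets the gene was called (log2 change -0.38, adjusted p = 0.0423 by limma).

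KLK10, first described as a gene expressed in normal breast epithelium and silenced in breast cancer lines, had the largest change among the members. It read 130 and 134 on the arrays labelled double knockdown and 227 and 214 on the control arrays, with means of 132 ± 2.49 and 220 ± 9.02 (SD, n = 2 each). The difference between groups was many times the spread within either. The log2 change was -0.67 ± 0.09 SE (95% interval -0.87 to -0.47, adjusted p = 0.00438 by limma). Without either array labelled double knockdown the log2 change was -0.66 or -0.69 and the call was lost (adjusted p = 0.0797 and 0.0942 by limma). By its type this probe set may pick up more than 1 transcript. The other probe set of KLK10 read 10.001 and 10.997 against 10.2 and 12.1 in the control, below the brightness minimum and with overlapping groups. Averaged with it, KLK10 had a log2 change of -0.35 and was still called (adjusted p = 0.0138 by limma).

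KLK6, a trypsin-like kallikrein best known from the nervous system, ran the other way by a small amount. It read 27.8 and 28.5 on the arrays labelled double knockdown and 24.0 and 24.6 on the control arrays. The groups did not overlap, but the log2 change of 0.13 ± 0.08 SE had a 95% interval of -0.06 to 0.33 and did not pass (adjusted p = 0.35 by limma). KLK11, another trypsin-like kallikrein, read 12.3 and 12.3 against 13.2 and 14.5 in the control, below the minimum on its only probe set. Without a brightness minimum its log2 change was -0.08 (adjusted p = 0.491 by limma), so no change of KLK11 was detected on this dim probe set.

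Among the 4 serpins, SERPINB5 (maspin) was the only one called. It read 2561 and 2518 on the arrays labelled double knockdown and 3534 and 3333 on the control arrays, with means of 2539 ± 31.0 and 3434 ± 142 (SD, n = 2 each). The groups lay far apart compared with either spread. The log2 change was -0.43 ± 0.09 SE (95% interval -0.63 to -0.23, adjusted p = 0.0199 by limma). The call was lost without control replicate 1 (adjusted p = 0.0719 by limma) and without either array labelled double knockdown (up to 0.194). It was also lost with a constant of 1 in place of 16, at a log2 change of -0.43 (0.0534). Averaged over both probe sets, the log2 change was -0.26 (0.0403). The other SERPINB5 probe set read 13.4 and 11.9 against 12.2 and 16.6 in the control, below the minimum.

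SERPINB3, also called squamous cell carcinoma antigen 1, inhibits cathepsins L, S and K and was spread widely within each group. On the brighter of its probe sets it read 149 and 194 on the arrays labelled double knockdown and 105 and 153 on the control arrays. The groups overlapped, and in each group the array numbered 2 was the higher. The log2 change was 0.38 ± 0.17 SE (95% interval -0.03 to 0.79, adjusted p = 0.201 by limma). It ranged with 1 array left out between 0.15 (without control replicate 1) and 0.62 (without control replicate 2), and was 0.21 without the second array labelled double knockdown and 0.56 without the first; it was not called in any of these fits. On the other it read 108 and 131 against 89.7 and 104 in the control, without overlap (log2 change 0.26 ± 0.12 SE, limma adjusted p = 0.196). The probe set that named SERPINB3 and SERPINB4 together had 143 and 179 against 112 and 135 in the control (log2 change 0.34 ± 0.13 SE, adjusted p = 0.125 by limma). SERPINB4, which inhibits cathepsin G and mast cell chymase, read 97.1 and 137 on the arrays labelled double knockdown and 64.2 and 89.3 on the control arrays (log2 change 0.52 ± 0.17 SE, limma adjusted p = 0.0973). The 4 probe sets of this gene pair thus had positive log2 changes and none passed, and since the genes are near-identical copies, their signals cannot be assigned to one of them.

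SERPINB13, known as headpin or hurpin, inhibits cathepsins L and K. Its brightest probe set read 82.7 and 98.5 on the arrays labelled double knockdown and 93.9 and 97.7 on the control arrays, which overlapped (log2 change -0.07 ± 0.10 SE, 95% interval -0.31 to 0.16, adjusted p = 0.701 by limma). On the next brightest the arrays labelled double knockdown read 28.8 and 28.8 and the control arrays 34.4 and 39.9, without overlap, yet the change did not pass (log2 change -0.24 ± 0.09 SE, adjusted p = 0.127 by limma). One more probe set overlapped, and the other 3 lay below the minimum. SERPINB1, an inhibitor of neutrophil elastase, cathepsin G and proteinase 3, read 1068 and 1219 on its brightest probe set on the arrays labelled double knockdown and 1190 and 1133 on the control arrays. These groups overlapped as well (log2 change -0.03 ± 0.10 SE, 95% interval -0.25 to 0.20, adjusted p = 0.906 by limma). Its other 3 probe sets had log2 changes of -0.07, -0.16 and 0.06, with adjusted p of 0.668, 0.32 and 0.701 by limma. The interval of the brightest one runs from 0.25 lower to 0.20 higher on the log2 scale, so a small change in either direction lies within it.

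**Figure D2:**
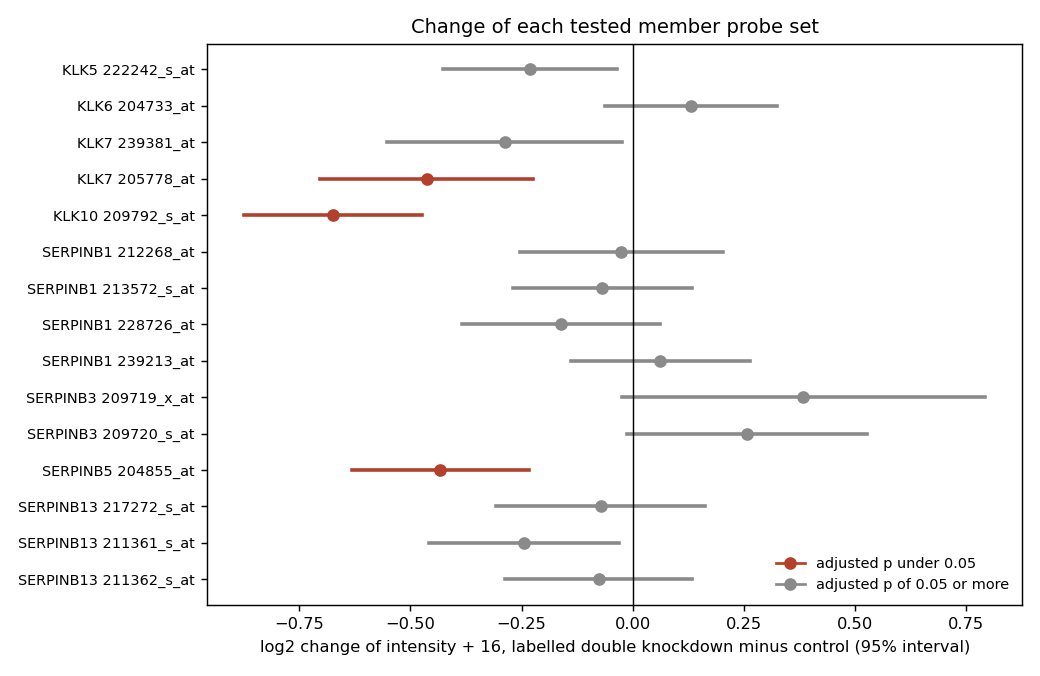
Log2 change of intensity + 16 (labelled double knockdown minus control) of the 15 tested probe sets, with limma's 95% interval as a bar. The 3 in red passed at an adjusted p under 0.05, at -0.67 for KLK10, -0.46 for KLK7 and -0.43 for SERPINB5, while both SERPINB3 probe sets lie to the right of 0 and did not pass.

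Probe sets of one gene disagreed little in sign among the tested ones. The pairs of KLK7 and of SERPINB3 and the 3 of SERPINB13 each shared a sign, and of the 4 of SERPINB1 the dimmest had a small positive log2 change. In 10 of the 15 tested probe sets the arrays of the groups did not overlap, 7 with the arrays labelled double knockdown lower and 3 with them higher, where 56.7% of all tested probe sets had no overlap. The 6 probe sets below the minimum read between 5.01 and 16.6 on any array. Without the minimum, their log2 changes lay between -0.08 and 0.05 and their smallest adjusted p was 0.491 by limma.

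The further kallikreins of the cluster were without a call. Of 10 further kallikreins on the list, 9 had a probe set of their own and 7 were tested at their brightest one. None of the 7 was called in either direction, with a median log2 change of 0.00, and none had an unadjusted p under 0.05. Among all 12960 genes tested at their brightest probe set, 5.74% were called lower and 8.52% higher, with a median of -0.01. KLK8, a trypsin-like kallikrein of epidermis and brain that lies beside KLK7, read 159 and 170 on the arrays labelled double knockdown and 155 and 167 on the control arrays (log2 change 0.03 ± 0.09 SE, 95% interval -0.18 to 0.24, adjusted p = 0.887 by limma). KLK12, KLK13 and KLK14, on the far side of KLK11, had log2 changes of 0.00, -0.13 and 0.02. KLK4, a kallikrein of tooth enamel, and KLK1, the kinin-releasing tissue kallikrein, had -0.04 and 0.07, and the prostate gene KLK3 0.00. The smallest adjusted p of these was that of KLK13, at 0.392 by limma. KLK2 and KLK15 lay below the minimum, and KLK9 was not analysed here. KLK7 thus lay between KLK6 and KLK8, which were tested and not called. At its brightest probe set, as used for these neighbours, KLK7 was not called either. KLK10 lay beside KLK11, which was too dim. The difference between neighbours was not itself tested.

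In the SERPINB family, SERPINB7, a serpin of upper epidermis, was lower as well. It read 27.1 and 22.6 on the arrays labelled double knockdown and 35.3 and 46.9 on the control arrays, without overlap (log2 change -0.48 ± 0.12 SE, adjusted p = 0.0424 by limma). Its call was lost without control replicate 2 (log2 change -0.33) and without either array labelled double knockdown, with adjusted p of 0.12 to 0.312 by limma, and also with a constant of 1 (0.0527) or 64 (0.0913) or without the brightness minimum (0.141). SERPINB8, an inhibitor of furin, gave opposite signs on its 2 probe sets. The brighter read 132 and 140 on the arrays labelled double knockdown and 95.2 and 128 on the control arrays (log2 change 0.26 ± 0.13 SE, adjusted p = 0.24 by limma; 0.45 and 0.0497 without control replicate 2), and the other 34.7 and 36.5 against 46.3 and 45.4 in the control (-0.26 ± 0.08 SE, adjusted p = 0.0852 by limma). Of 9 further SERPINB genes on the list, 7 had a probe set of their own and 3 were tested. SERPINB7 was called lower and none higher, with SERPINB4 and SERPINB8 not called. Over all genes tested at their brightest probe set, 5.74% were called lower and 8.52% higher. The 4 further SERPINB genes too dim to be tested were SERPINB9, SERPINB10, SERPINB11 and SERPINB12. SERPINB2 and SERPINB6 were not analysed here. On chromosome 18, SERPINB5 and SERPINB7 were called lower while SERPINB13, SERPINB4 and SERPINB3 lie between them without a call.

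**Figure D3:**
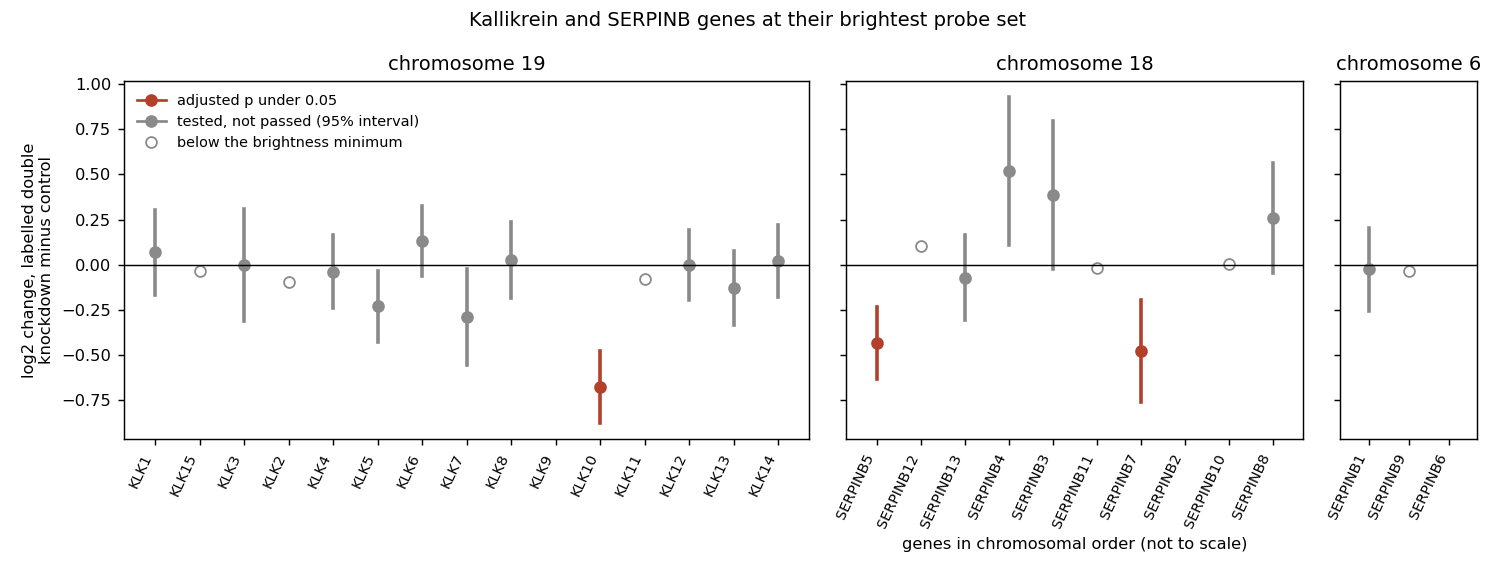
Log2 change (labelled double knockdown minus control) at the brightest probe set of each gene, in the order of the genes along chromosomes 19, 18 and 6, with limma's 95% interval. Red marks genes that passed (KLK10, SERPINB5 and SERPINB7), open circles genes below the brightness minimum at their value without it, and a gap a gene not analysed here; KLK7 passed only on its dimmer probe set, which is not drawn.

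Inhibitors of kallikreins and related proteases outside the SERPINB family were called in both directions. Of 19 on the list 9 were tested, of which 3 rose, 2 fell and 4 did not pass (median log2 change 0.18), where 8.52% of all genes tested at their brightest probe set were called higher and 5.74% lower. PI3, the elastase inhibitor elafin, fell to 216 and 230 on the arrays labelled double knockdown, against 790 and 884 in the control (log2 change -1.83 ± 0.10 SE, adjusted p = 0.000141 by limma). SLPI, the secreted leukocyte protease inhibitor, which also inhibits KLK7, fell to 2232 and 2364, against 2936 and 3496 (log2 change -0.48 ± 0.11 SE, limma adjusted p = 0.0302). The 3 called higher were serpins. SERPING1, the inhibitor of complement C1 and plasma kallikrein, rose to 103 and 119, against 39.2 and 33.6 in the control (log2 change 1.28 ± 0.10 SE, adjusted p = 0.000796 by limma). SERPINF2, the inhibitor of plasmin, rose to 61.2 and 66.5, against 26.1 and 31.1 (log2 change 0.84 ± 0.10 SE, adjusted p = 0.00291 by limma). SERPINA3, which inhibits chymotrypsin-like proteases, rose to 2509 and 2886, against 1595 and 1716 (log2 change 0.70 ± 0.10 SE, adjusted p = 0.00732 by limma). In each of these 5 genes the arrays of the groups lay apart. PI3 and SERPING1 kept their calls whichever array was left out. SERPINF2 (adjusted p up to 0.0892) and SERPINA3 (up to 0.124) lost theirs without either array labelled double knockdown, and SLPI (up to 0.214) also without control replicate 2, with a constant of 1 (0.0663) and without the brightness minimum (0.0969).

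Of 17 proteases that activate kallikreins or resemble them, 12 were tested, and PRSS3 was the only one called, where 14.3% of all genes were called in either direction (median log2 change of the list 0.05). PRSS3, a trypsin that resists most inhibitors, rose to 80.2 and 50.2 on the arrays labelled double knockdown, against 31.6 and 30.7 in the control (log2 change 0.76 ± 0.16 SE, limma adjusted p = 0.0262). The arrays labelled double knockdown were far apart, and without the higher of them the call was lost (log2 change 0.49, adjusted p = 0.121 by limma), as it was without either control array (up to 0.101), with a constant of 64 (0.0727) and with no brightness minimum (0.136). The probe set is of a type shared by near-identical trypsin genes, so its gene is uncertain. The next smallest p belonged to the plasminogen activator PLAU (log2 change 0.26, adjusted p = 0.119 by limma), the proprotein convertase FURIN (-0.22, 0.293) and TMPRSS4, a membrane protease (-0.18, 0.377).

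Substrates and receptors reported for kallikreins were called in both directions. Of 21 on the list 13 were tested, with 2 higher, 2 lower and a median log2 change of 0.02, where 8.52% of all genes were called higher and 5.74% lower. IL1B, the cytokine interleukin 1 beta, rose to 1195 and 1217, against 587 and 495 in the control (log2 change 1.14 ± 0.10 SE, adjusted p = 0.00129 by limma). DSG2, a desmosomal cadherin, rose to 2163 and 1791, against 1400 and 1424 (log2 change 0.47 ± 0.11 SE, adjusted p = 0.032 by limma). SCNN1G, a subunit of the epithelial sodium channel, fell to 64.3 and 61.2, against 130 and 138 (log2 change -0.93 ± 0.09 SE, adjusted p = 0.00139 by limma). FN1, the matrix protein fibronectin, fell to 249 and 199, against 672 and 471 (log2 change -1.28 ± 0.17 SE, adjusted p = 0.00567 by limma). DSG2 lost its call whichever array was left out (adjusted p up to 0.211) with a constant of 1 (0.0682) and without the brightness minimum (0.102), FN1 without either array labelled double knockdown (up to 0.119) or the brightness minimum (0.062), and IL1B (0.0612) and SCNN1G (0.0621) without the array labelled double knockdown replicate 2.

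Of 20 proteases that SERPINB proteins inhibit, 14 were tested, with CTSB called higher, CTSC called lower and a median log2 change of 0.03. Over all genes 14.3% were called in either direction, the same share. CTSB, the lysosomal cathepsin B, rose to 3034 and 2908 on the arrays labelled double knockdown, against 2397 and 2191 in the control (log2 change 0.37 ± 0.09 SE, adjusted p = 0.038 by limma). CTSC, the peptidase that activates granule proteases, fell to 1249 and 1319, against 1738 and 1718 (log2 change -0.42 ± 0.08 SE, adjusted p = 0.0206 by limma). Both lost their calls whichever array was left out, with adjusted p up to 0.235 and 0.173 by limma, and with a constant of 1 (0.0852 and 0.0549). CTSB also lost its call without the brightness minimum (0.0684) and with the mean of its probe sets (log2 change 0.20, adjusted p = 0.0907 by limma). CTSV, a cathepsin close to cathepsin L, did not pass (log2 change -0.24 ± 0.09 SE, adjusted p = 0.116 by limma). None of the 6 cystatins tested, which inhibit cysteine proteases, was called, and the smallest p was that of CST3, cystatin C (log2 change -0.31 ± 0.10 SE, adjusted p = 0.079 by limma).

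**Figure D4:**
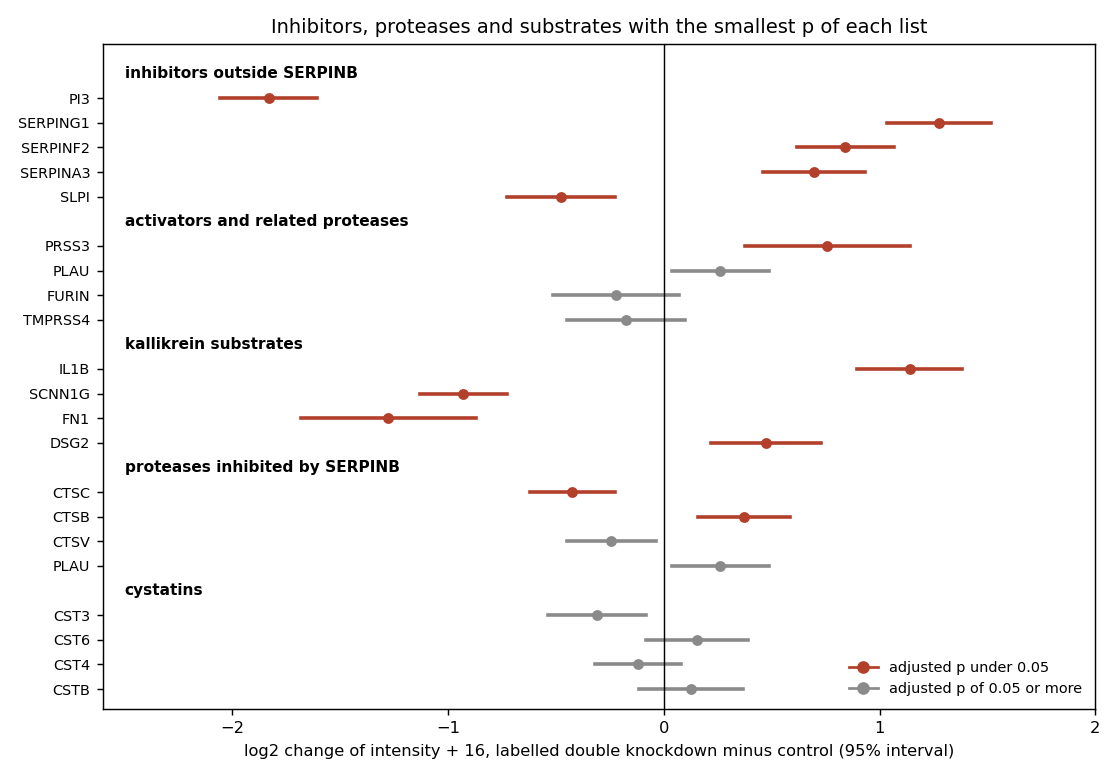
Log2 change of intensity + 16 (labelled double knockdown minus control) with limma's 95% interval for the genes with the smallest p in each list, by list; PLAU is on 2 lists. PI3 (-1.83) and SERPING1 (1.28) lie farthest from 0 among the inhibitors, in opposite directions, and none of the cystatins passed.

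Markers of cell state are given as measured, and some of them were called. Over all genes tested at their brightest probe set, 5.74% were called lower and 8.52% higher. Of 11 epithelial markers on the list, 8 had a probe set of their own, all above the brightness minimum on their brightest one. Some markers of the other cell types below also passed this minimum, so passing it does not identify the line. KRT14 (log2 change -1.62) and KRT5 (-0.73), keratins of basal cells, were lower, and KRT18 (0.53) and EPCAM (0.40) higher. Of the 8, 4 had log2 changes above 0 and 4 below, with a median of -0.03, and 4 were not called. The summed intensity of the 8 was 19298 to 19688 on the arrays labelled double knockdown and 30267 to 30782 on the control arrays. KRT14, at means of 4488 against 13818 in the control, and KRT5, at 4848 against 8056, weighed most in this drop. Of 9 tested markers of keratinocyte differentiation, 5 were called lower and 1 higher. SPRR3 (-1.34), SPRR1A (-1.23), SPRR1B (-1.14), CALML5 (-0.51) and IVL (-0.38) fell and TGM1 (0.43) rose. CALML5 read 8.74 and 12.0, against 24.8 and 18.5 in the control, so it reached the minimum only through the control arrays. IVL was near the minimum, at 15.8 and 13.9 against 26.0 and 22.2. Both lost their calls with a constant of 64 (limma adjusted p = 0.0877 and 0.105) and without the brightness minimum (0.103 and 0.0788). The whole list of 14 summed to 2862 to 3133 on the arrays labelled double knockdown and 4989 to 5193 on the control arrays. SPRR1B (means of 1033 against 2294 in the control) and SPRR1A (630 against 1488) weighed most in that drop. KRT1, FLG, DSG1, LORICRIN and TGM3 were below the minimum. KRT8 (0.65) was the only call among 4 tested luminal markers, and the other 3 had log2 changes below 0. FOXA1, KRT19 and PGR were below the minimum. All 7 luminal markers together summed to 815 to 863 on the arrays labelled double knockdown and 616 to 743 on the control arrays. KRT8, at means of 644 against 404 in the control, weighed most in this rise. GATA3 went the other way, at means of 124 against 202 in the control, and was not called (log2 change -0.61, adjusted p = 0.0718 by limma). None of 3 tested leukocyte markers was called, PTPRC was among 3 below the minimum, and the 6 together summed to 88.1 to 88.2 against 85.6 to 91.5 in the control. Of 4 tested fibroblast and endothelial markers DCN was called, and lower (-0.81). All 10 on that list, 6 of them below the minimum, summed to 292 to 294 against 372 to 376 in the control. The part of these shifts in the values of the kallikreins and serpins was not tested. Of the markers called, KRT14, SPRR3, SPRR1A and SPRR1B kept their calls whichever array was left out, and the others lost theirs without at least 1 array, with leave-one-out adjusted p up to 0.29 by limma.

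The profile over the 4 arrays most like that of each gene was sought among 12865 tested genes outside all the lists used here. The measure was the Euclidean distance between log2 values centred on their mean. CA12, a carbonic anhydrase, lay closest to KLK10 (distance 0.0359) and had a log2 change of -0.70. ANKRD54 lay closest to SERPINB5 (0.0151), with -0.44, and REPS2 to SERPINB3 (0.0148), with 0.39. At their brightest probe set, SPTSSA was the nearest of KLK7, RPL7AP9 of KLK5, MT4 of KLK6, SCNN1D of SERPINB1 and MYG1 of SERPINB13, at distances of 0.00551 to 0.0152. A similar log2 change follows from this choice, and with 4 arrays the likeness is a description only.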

How the data were processed

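The authors deposited 1 table of linear probe set intensities from 4 arrays, with the summary and normalization steps not given in the sources used here. Groups and sample numbers come from the sample titles. Of 54675 probe sets, 62 controls were left out, and 41091 named 1 gene, of which 41037 were matched by gene identifier to RefSeq (GRCh38.p14) for current symbols.

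Values were taken as log2(intensity + 16). The two-sided moderated test of limma (version 3.58.1, under R 4.3.3; lmFit, then eBayes) took all 4 arrays with no covariate, with Benjamini-Hochberg adjustment over the 27307 probe sets whose mean reached the median of the probe sets other than controls. Every adjusted p is from limma. A gene is represented by its brightest probe set. The test was run on simulated data with independent noise on each array, which cannot show how it behaves where arrays share a culture. The number of arrays limits the precision.

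The members and lists were chosen with earlier results of these data known, and the motifs after the values were seen. Named were all members, all other kallikrein and SERPINB genes, CBL, CBLB, from each other list up to 4 genes with the smallest p and the called ones where few, and the gene with the nearest profile. Alternatives were other normalizations, constants, filters, probe set choices, variance models, a replicate block and leaving out each array.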

Additional observations from a re-analysis of the deposited data

How the results depend on the processing

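KLK10 and SERPINB5 kept their direction under every alternative that held their probe set, as did both probe sets of KLK7. These alternatives numbered 15 for KLK10, 16 for SERPINB5, 13 for the called KLK7 probe set and 15 for the other. Over the alternatives, the log2 change was -0.73 to -0.35 for KLK10, -0.63 to -0.25 for the called KLK7 probe set and -0.47 to -0.26 for SERPINB5. Adjusted p (limma) ranged over 0.00214 to 0.0942 for KLK10, 0.0237 to 0.245 for KLK7 and 0.0055 to 0.194 for SERPINB5. KLK7 lost its call with a constant of 64 (0.0583) and without the brightness filter (0.0845). Centring, quantile or cyclic loess normalization each left 3 member probe sets lower and 0 higher. Of all 212 values of member probe sets under alternatives, 194 kept direction and side of the threshold, 11 lost a call, 3 gained one and 4 changed sign. Leaving out 1 array gave 0 to 2 member probe sets lower and 0 higher, and over all probe sets 42 to 1069 lower and 142 to 1474 higher, against 1417 and 2152 with all arrays.

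Over all probe sets the count lower was 850 with a constant of 1, 585 without the filter (975 higher), 855 with 1 probe set per gene (1219 higher), 830 when the probe sets of each gene were averaged (1055 higher), both of which test fewer features, and 706 once probe sets of more than 1 transcript were dropped. The cause of the others was not tested. Of the calls, 44% were lower with quantile normalization, and 32.4% to 45.5% over the settings that kept all arrays.

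Differences between array 1 and array 2 correlated at r = 0.18 between groups over the tested probe sets, but the labels do not say that a number is shared. With the replicate block, 1389 probe sets were lower and 2092 higher, 3 member probe sets were lower and 1, SERPINB3, was higher (log2 change 0.38, adjusted p = 0.0425); SERPINB4 was then called (0.0207) and SERPINB7 not (0.0685).

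The values that changed sign were all of genes not called. SERPINB1 had 0.0078 with cyclic loess, KLK14 -0.0087 with quantile normalization, KLK3 0.0009 with a constant of 1, and KLK8 -0.0084 and SERPINB8 -0.0003 with the mean of probe sets. Leaving out 1 array at a time, log2 changes ran from -0.12 to 0.069 for SERPINB1, -0.18 to 0.035 for SERPINB13, -0.012 to 0.15 for KLK1, -0.19 to 0.19 for KLK3, -0.088 to 0.013 for KLK4, -0.024 to 0.079 for KLK8, -0.0075 to 0.0069 for KLK12 and -0.0092 to 0.049 for KLK14. For KLK11, on a dim probe set, no change was detected without the brightness filter.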
